A study of Mus musculus with 18 samples.

Results

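The genes described here encode the 3 large families of conjugating enzymes of mouse liver, the glutathione transferases (GST), the UDP-glucuronosyltransferases (UGT) and the sulfotransferases (SULT). They were taken by symbol, as the genes named Gsta, Gstm, Gstp, Gstt, Gstk or Gsto with a number, Ugt1 to Ugt3, and Sult with a number, leaving out 4 symbols marked as pseudogenes. The rule found 62 of the 28030 genes in the table, of which 21 were GST, 20 UGT and 21 SULT genes. Enough reads for testing were present for 44 of them (18 GST, 18 UGT and 8 SULT genes).

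Conjugation is the step of detoxification in which a small polar group is joined to a drug, hormone, bile pigment or reactive metabolite, so that it can leave the cell in bile or urine. Glutathione transferases add glutathione in the cytosol, UDP-glucuronosyltransferases add glucuronic acid inside the endoplasmic reticulum, and sulfotransferases add sulfate from the donor PAPS. In the liver lobule, hepatocytes around the central vein (pericentral) carry much of the oxidative drug metabolism, and those around the portal triad (periportal) receive the incoming blood first.

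RNA was measured in hepatocytes from livers of male wild-type C57BL/6J mice aged 12 weeks on a chow diet, with each zone obtained by a digitonin procedure. All mice had 3 days of training to a schedule with a 16 h overnight fast, and on the test day they had food together with drinking water holding 20% sucrose. Fed mice were killed at 13:00, after 4 h of feeding. The 8 h fast ended at 21:00 and the 24 h fast at 13:00 on the next day, so the 8 h groups were also collected at another clock hour than the rest. Each of the 6 groups of zone and state has 3 libraries, 18 in all, with estimated counts that sum to between 1.84e+07 and 2.64e+07 per library. The labels do not say that the replicates were separate mice, so p-values measure the spread between these samples, which may be technical.

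Levels are given as CPM, a gene's share of the TMM-scaled library total, for replicates 1, 2 and 3 in that order. Differences are log2 fold changes from edgeR with their standard error (SE), and a gene is called at an adjusted p under 0.05 (edgeR's quasi-likelihood test, Benjamini-Hochberg over the 12477 genes tested). In these bulk samples, fewer cells of a type and less RNA per cell cannot be told apart.

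The zone labels were checked with markers. All 4 pericentral markers (Cyp2e1, Glul, Oat and Cyp1a2) were lower in the periportal libraries and all 4 periportal markers (Cyp2f2, Hal, Sds and Gls2) higher. Albumin, the hepatocytes' main secreted protein, lay between 40028 and 159562 CPM. Pericentral 24 h replicate 2 stood apart from its group: Glul was at 111 CPM there against 928 and 707, Oat at 257 against 1055 and 1158, and Hal at 466 against 243 and 196. Calls lost or gained without this library are given beside the genes concerned. Markers of other liver cells were low but tended to be higher in the periportal libraries, with 3 of 4 tested endothelial, 3 of 6 leukocyte, 0 of 3 stellate and 2 of 3 cholangiocyte markers called higher, against 10.3% of all genes. Summed per library, endothelial markers lay at 2.63 to 9.29 CPM (pericentral) and 3.43 to 25.8 CPM (periportal), leukocyte markers at 0.651 to 7.17 and 1.01 to 25.5, stellate markers at 0.696 to 4.89 and 0.969 to 14.2, and cholangiocyte markers at 19.3 to 37.6 and 32.8 to 56.7. Periportal 8 h replicate 3 was high for its group in some of them, with Kdr at 6.66 CPM against 0.444 and 1.29 and Dcn at 6.99 against 0.0808 and 0.667. Ptprc was not, at 0.466 against 0.0808 and 0.622. That library also held the highest level of Gstm1 (1933 CPM), Gsta2 (212 CPM) and Ugt1a9 (671 CPM), and a link was not tested. Among the cholangiocyte markers, Epcam was at 0 in all 18 libraries and Krt19 at most at 0.506 CPM. Krt7 lay at 11.1 to 20.2 CPM, Sox9 at 2.42 to 17.4 CPM and Spp1 at 5.39 to 25.1 CPM. The part of these other liver cells in the results was not tested.

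A pair of neighbouring genes of the Ugt1a locus differed in opposite directions between the zones. Ugt1a9 was higher in periportal and Ugt1a10 higher in pericentral hepatocytes, although both join their own first exon to the same following exons. Ugt1a10 was of low level, at 0.646 to 7.02 CPM over the libraries against 75.1 to 671 CPM for Ugt1a9. Of the 31-base words in the Ugt1a9 transcripts, 65.1% also occur in those of Ugt1a10, so both values rest in part on how reads were divided. The 250 bases before their RefSeq starts (GRCm38.p6, plus strand) are shown to allow the comparison, with runs of at least 12 bases that occur in both in capitals. The Ugt1a9 window is chr1:88070529-88070778 and the Ugt1a10 window is chr1:88055161-88055410.
Ugt1a9: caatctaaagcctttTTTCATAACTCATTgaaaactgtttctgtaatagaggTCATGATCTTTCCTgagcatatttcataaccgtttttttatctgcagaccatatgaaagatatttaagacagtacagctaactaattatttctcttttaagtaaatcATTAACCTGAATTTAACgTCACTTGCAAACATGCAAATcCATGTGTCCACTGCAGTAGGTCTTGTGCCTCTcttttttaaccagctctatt
Ugt1a10: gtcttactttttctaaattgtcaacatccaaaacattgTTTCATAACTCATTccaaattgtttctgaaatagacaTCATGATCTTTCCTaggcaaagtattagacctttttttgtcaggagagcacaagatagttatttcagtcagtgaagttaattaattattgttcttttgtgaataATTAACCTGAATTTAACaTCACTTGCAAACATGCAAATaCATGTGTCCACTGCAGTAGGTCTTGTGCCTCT

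The shared runs cover 97 of the 250 bases (38.8%) in each window, and the longest is 32 bases. Over all 28 pairs of the 8 Ugt1a promoters with a sequence, the median of the longest shared run was 8 bases and the next longest was 11. The total length of shared runs was computed for this pair alone. Both windows hold none of the 4 motifs searched, which says only that those letters are not in the window.

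The motifs were the AHR core GCGTG, the antioxidant response core TGACNNNGC, the E-box CACGTG and the TCF core CTTTGA, each on both strands in windows from 250 bases before to 50 after the start; the letters of 1 motif may overlap those of another. RefSeq promoters were found for 54 of the 62 genes (64 starts). GCGTG was in 20.3% of the 64 windows against 32.4% of all 32851 promoters, TGACNNNGC in 4.69% against 12.4%, CACGTG in 0 of 64 against 7.15%, and CTTTGA in 23.4% against 16%. Gstm2, the GST gene with the largest zone difference, and Gsta3, the most abundant, serve as examples. The Gstm2 window (chr3:107986421-107986670, minus strand) holds none of the 4 motifs, and the Gsta3 window (chr1:21240335-21240584, plus strand) holds the antioxidant response core that begins 121 bases before the start, in capitals. A match is a match of letters, not a shown binding site.
Gstm2: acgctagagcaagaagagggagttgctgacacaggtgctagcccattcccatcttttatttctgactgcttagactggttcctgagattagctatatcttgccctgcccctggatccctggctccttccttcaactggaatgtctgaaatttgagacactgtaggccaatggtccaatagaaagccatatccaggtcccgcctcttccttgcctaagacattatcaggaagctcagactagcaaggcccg
Gsta3: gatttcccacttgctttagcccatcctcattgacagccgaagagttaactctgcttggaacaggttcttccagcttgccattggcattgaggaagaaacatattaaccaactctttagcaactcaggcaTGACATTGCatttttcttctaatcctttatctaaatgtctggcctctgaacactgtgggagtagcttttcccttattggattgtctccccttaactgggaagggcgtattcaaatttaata

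Zone was where these genes differed most. Of the 44 tested genes, 22 were called between periportal and pericentral hepatocytes in the mean over the 3 states, against 20.3% of all genes tested. Of the 22, 14 were lower in periportal hepatocytes, against 9.96% of all genes, and 8 were higher, against 10.3%. By family, 7 of 18 GST genes (3 higher, 4 lower), 10 of 18 UGT genes (3 higher, 7 lower) and 5 of 8 SULT genes (2 higher, 3 lower) were called. The median difference of the 44 was -0.03 against 0.00 over all genes, so the families had members on both sides rather than a common shift.

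**Figure D1:**
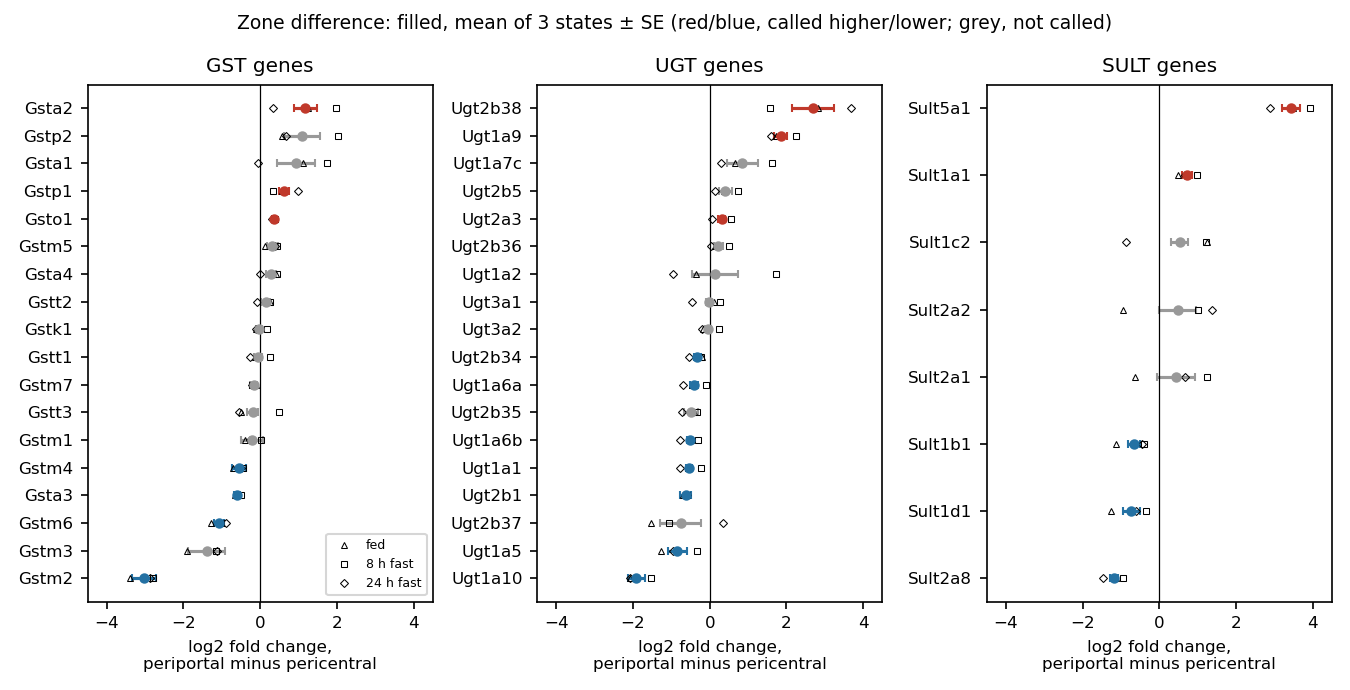
Zone difference of each tested gene by family, as the log2 fold change of periportal minus pericentral; filled points are the mean of the 3 states with its SE, coloured where called, and open symbols are the single states. Gstm2, Ugt1a10 and Sult2a8 lie far on the pericentral side, and Sult5a1, Ugt2b38 and Ugt1a9 far on the periportal side.

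The zones were also compared within each feeding state. Since the 22 genes were called on the mean of the same 3 states, their common sign in all 3 is no separate result. Sult1c2, not called in the mean, was 1.25 when fed and -0.88 at 24 h (adjusted p = 0.231), and Gstt3 was -0.51 when fed and 0.49 at 8 h, neither called. When fed, 12 genes (27.3%) were called, against 8.01% of all genes, with 4 higher (background 3.89%) and 8 lower (4.13%) in periportal hepatocytes. At 8 h 11 genes (25.0%) were called, against 7.14%, with 6 higher (3.72%) and 5 lower (3.42%). At 24 h 12 genes (27.3%) were called, against 4.17%, with 4 higher (1.70%) and 8 lower (2.47%). The genes called in all 3 states numbered 8: Gsta3, Gstm2, Gstm6, Gsto1, Ugt1a9, Ugt1a10, Sult2a8 and Sult5a1. At 8 h the count was 7 without pericentral 8 h replicate 2. At 24 h it was 7 without pericentral 24 h replicate 3, 6 without periportal 24 h replicate 3 and 9 without pericentral 24 h replicate 2, the library that stood apart. In 5 genes no periportal library overlapped any pericentral one (Gstm2, Sult2a8 and Ugt1a10 high in pericentral, Sult5a1 and Ugt1a9 in periportal), a separation seen in 2.59% of all genes.

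Among the glutathione transferases, the mu class gave the largest pericentral excess. Gstm2, a cytosolic enzyme that conjugates electrophiles, was at 84.1, 77.7 and 55.9 CPM in fed pericentral libraries and at 5.69, 11.9 and 3.01 in fed periportal ones. At 8 h its pericentral levels were 52.4, 64.4 and 73.9 against 7.11, 11.5 and 8.95, and at 24 h they were 39.2, 14.3 and 77.8 against 7.04, 6.19 and 4.55. All 9 pericentral libraries were above all 9 periportal ones, and the lowest of them was the 24 h replicate that stood apart. The mean difference was -3.03 (SE 0.32, adjusted p = 1.16e-05), 8.14-fold lower in periportal hepatocytes, and -3.17 without that library. At 24 h alone it was -2.88 (adjusted p = 0.00887), and -3.30 without that library, but the 24 h call was lost without periportal 24 h replicate 3 (-2.72) and in a fit to those 2 groups alone (adjusted p = 0.123).

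Gstm6, of the same gene cluster on chromosome 3, had the same direction at a smaller size. It lay at 73.2, 74.9 and 53.9 CPM in fed pericentral and 30.5, 35.8 and 17.3 CPM in fed periportal libraries, with a mean difference of -1.06 (SE 0.13, adjusted p = 1.84e-05), and -1.12 without the library that stood apart. The single 24 h call (-0.89, adjusted p = 0.0329) was lost without pericentral replicates 1 or 3 or any of the periportal replicates of that state (-0.94 to -0.76), with no filter on low counts and with the replicate number as a block (adjusted p = 0.0511). Gstm4 was called at -0.56 (SE 0.18, adjusted p = 0.0391), but 12 of the 18 fits that leave out a library lost this call (-0.58 to -0.47); only those without replicate 1 of fed pericentral, fed periportal or periportal 24 h, pericentral 8 h replicate 2, periportal 8 h replicate 3 or periportal 24 h replicate 2 kept it. It was also lost with the replicate block (adjusted p = 0.0518) and with no filter on low counts (adjusted p = 0.081). Gstm1, the most abundant mu gene, spanned 715 to 1553 CPM over pericentral libraries and 401 to 1933 CPM over periportal ones, a difference of -0.21 (SE 0.29, adjusted p = 0.681). Gstm3, named after its values were seen, was at 76.4, 111 and 45.0 CPM in fed pericentral and 38.4, 19.7 and 4.19 CPM in fed periportal libraries. The edgeR value over the states, -1.39 (SE 0.48, adjusted p = 0.0577), missed the threshold; it was called without the library that stood apart (-1.53, adjusted p = 0.0393), in DESeq2 (-1.38, adjusted p = 0.0229) and in limma-voom (-1.60, adjusted p = 0.0224).

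The alpha class was divided between the zones. Gsta3, the most abundant of the 62 genes by CPM and per kilobase of transcript, was at 2048, 2386 and 1815 CPM in fed pericentral and 1310.0, 1414 and 1235 CPM in fed periportal libraries. The levels were 1394, 1775 and 1919.6 against 1153, 1099 and 1313 at 8 h, and 1435, 1634 and 1775 against 1061, 1089.9 and 1012 at 24 h. The zones did not overlap in any state (as in 28.3%, 23.9% and 22.1% of all genes), and the mean difference was -0.60 (SE 0.08, adjusted p = 3.79e-05). Its 8 h call (-0.51, adjusted p = 0.031) was lost without pericentral 8 h replicates 2 or 3 or periportal 8 h replicates 1 or 2 (-0.50 to -0.43) and in a fit to those 2 groups alone (adjusted p = 0.171), and its 24 h call (-0.61, adjusted p = 0.0158) without periportal 24 h replicate 3 (-0.59) or pericentral 24 h replicate 3 (-0.54).

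Gsta2, an alpha enzyme also active on lipid peroxides, lay the other way. It was at 45.8, 65.1 and 28.9 CPM in fed pericentral and 151, 95.4 and 87.2 CPM in fed periportal libraries, and the mean difference was 1.18 (SE 0.31, adjusted p = 0.0143), 2.27-fold. At 8 h its periportal levels of 85.0, 55.5 and 212 CPM stood against 16.0, 21.4 and 52.0 CPM; that call (1.97, adjusted p = 0.044) rests on the highest library, since without it the value was 1.24 and not called. It was also lost in 10 other fits that leave out a library, all but those without pericentral fed replicates 2 or 3, pericentral 8 h replicate 3, periportal 8 h replicates 1 or 2, pericentral 24 h replicate 1 or periportal 24 h replicate 3, as well as with the replicate block (adjusted p = 0.0581), with no low-count filter and in the 2 groups alone. At 24 h the zones overlapped, at 31.1, 55.8 and 55.8 CPM in pericentral and 72.9, 65.3 and 40.9 CPM in periportal libraries (0.33, adjusted p = 0.823), and the fed difference was not called either (1.25, adjusted p = 0.191). Gsta1 and Gsta2 share transcript sequence, with 55.5% of the 31-base words of Gsta1 found in other genes of the 3 families. Genes outside the families share 88.5% of the words of Gsta1 and 56.0% of those of Gsta2, which a sum of both does not cover. Their summed counts gave 1.16 (SE 0.32, adjusted p = 0.0214) over the states and were not called when fed (adjusted p = 0.227), at 8 h (1.94, adjusted p = 0.0587) or at 24 h (0.30, adjusted p = 0.847).

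Gstp1 and Gsto1 were called higher in periportal hepatocytes. Gstp1, the main pi-class enzyme, was at 572, 559 and 614 CPM in fed pericentral and 1100.3, 672 and 802 CPM in fed periportal libraries, a mean difference of 0.63 (SE 0.13, adjusted p = 0.00196). Gstp1 and Gstp2 share more than their reads can always separate, and their sum gave the same 0.63 (adjusted p = 0.00201). With means of 723 CPM for Gstp1 and 3.09 CPM for Gstp2 over all libraries, the sum had to follow Gstp1 and is no separate check. Genes outside the families share 44.3% of the 31-base words of Gstp1 and 44.7% of those of Gstp2, which this sum does not cover. Gstp2 alone was not called (1.09, SE 0.46, adjusted p = 0.116). The 24 h difference of Gstp1 (0.99, adjusted p = 0.0169) was lost without pericentral 24 h replicates 2 or 3 or periportal 24 h replicates 1 or 3 (0.84 to 0.95). Gsto1, which reduces dehydroascorbate and arsenic compounds, was called at 0.35 (SE 0.05, adjusted p = 4.62e-05), with little spread between replicates. Its fed call (0.35) was lost without pericentral fed replicate 3 (0.31), its 8 h call (0.38) in the 2 groups alone (adjusted p = 0.106), and its 24 h call (0.30, adjusted p = 0.0459) in 14 of the 18 fits that leave out a library (0.29 to 0.31), all but those without pericentral fed replicates 1 or 3, replicate 1 of either 8 h group. That 24 h call was also lost with the replicate block (adjusted p = 0.0591), with no low-count filter, in the 2 groups alone and in limma-voom. Gstt1 (-0.05, SE 0.10, adjusted p = 0.778) and Gstk1 (-0.02, SE 0.08, adjusted p = 0.917), the most abundant theta and kappa genes, gave no called zone difference.

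**Figure D2:**
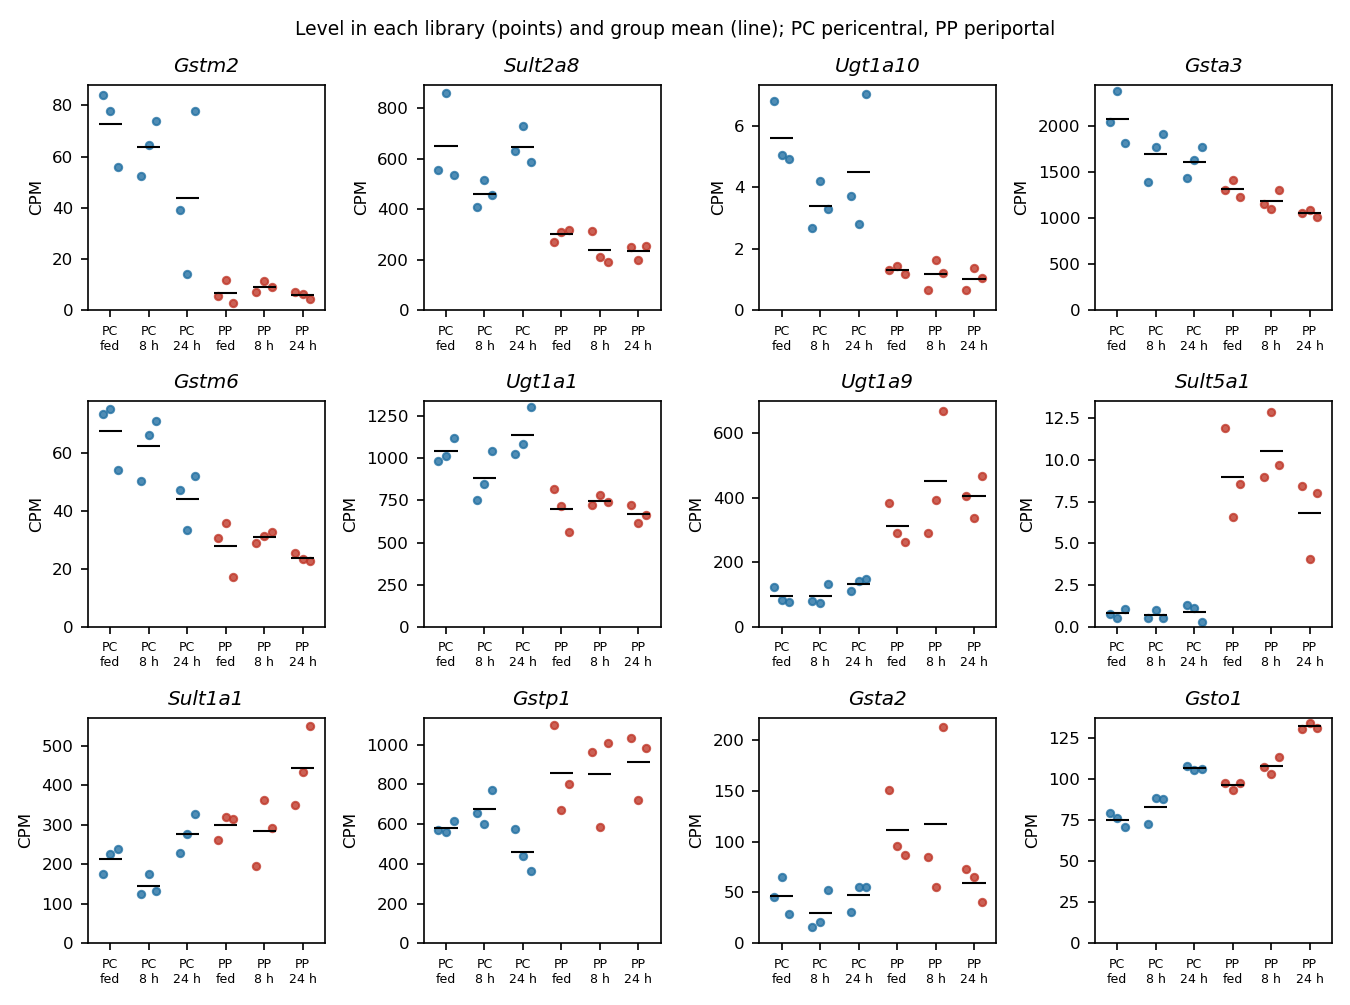
CPM of 12 genes in each library, with 3 points and their mean for each zone and state. Gstm2, Sult2a8, Ugt1a10, Ugt1a9 and Sult5a1 separate all pericentral from all periportal libraries, while the other 7 overlap when the states are pooled.

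The 9 Ugt1a genes lie along 1 locus on chromosome 1, each with its own start and first exon, and all 9 hold 3 exons identical to internal exons of Ugt1a1, the bilirubin-conjugating enzyme. Reads from these shared exons cannot be assigned to 1 gene, and only 3.2% of the 31-base words of Ugt1a6a and 15.8% of those of Ugt1a6b are found in no other gene of the 3 families. For the other 7 genes 33.2% to 44.1% are. Genes outside the families share 39.4% of the words of Ugt1a1, 31.8% of those of Ugt1a10 and 9.6% to 20.3% of those of the rest. Values for single Ugt1a genes, Ugt1a6a and Ugt1a6b above all, therefore rest on how the quantification divided reads.

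Ugt1a9, which conjugates phenols, was at 124, 84.6 and 76.8 CPM in fed pericentral and 383, 292 and 263 CPM in fed periportal libraries. The levels were 79.7, 75.1 and 132 against 292, 393 and 671 at 8 h, and 112, 141 and 148 against 407, 339 and 469 at 24 h. No library of one zone reached the levels of the other, and the mean difference was 1.85 (SE 0.17, adjusted p = 1.73e-06), 3.61-fold. Ugt1a10, which starts 159.7 kb before the first shared exon where Ugt1a9 starts 144.2 kb before it, was of low level and is named after its values were seen. It lay between 2.66 and 7.02 CPM in pericentral and between 0.646 and 1.64 CPM in periportal libraries, a difference of -1.91 (SE 0.21, adjusted p = 4.89e-06); its 8 h call (-1.53, adjusted p = 0.0156) was lost without pericentral 8 h replicate 2 or periportal 8 h replicates 1 or 3 (-1.56 to -1.24) and in the 2 groups alone (adjusted p = 0.0667).

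Ugt1a1, the most abundant gene of the locus, was lower in periportal hepatocytes. It was at 985, 1016 and 1121 CPM in fed pericentral against 815, 715 and 562 CPM in fed periportal libraries, and at 1025, 1087 and 1303 against 725, 619 and 663 CPM at 24 h. At 8 h the zones overlapped, at 755, 846 and 1045 against 723, 782 and 742 CPM, and the difference was not called (-0.24, adjusted p = 0.396). The mean difference was -0.53 (SE 0.08, adjusted p = 0.000239); the fed call (-0.58) was lost without pericentral fed replicates 2 or 3 or periportal fed replicate 3 (-0.60 to -0.45). Ugt1a6b (-0.52, SE 0.07, adjusted p = 2.29e-05), Ugt1a6a (-0.41, SE 0.11, adjusted p = 0.0105) and Ugt1a5 (-0.85, SE 0.25, adjusted p = 0.0252) were also lower. The fed call of Ugt1a6b (-0.49) was lost without pericentral fed replicate 2 (-0.44). The 24 h call of Ugt1a6a (-0.69, adjusted p = 0.0451) was lost without any of the fed pericentral libraries, fed periportal replicate 2, any of the pericentral 24 h libraries or periportal 24 h replicates 2 or 3 (-0.73 to -0.57) and with the replicate block. The call of Ugt1a5 was lost without replicate 3 of pericentral 8 h, periportal 8 h or periportal 24 h (-0.84 to -0.75), with the replicate block (adjusted p = 0.0513) and with no low-count filter (adjusted p = 0.0529).

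Summed over the 9 genes, the locus was not called between the zones (-0.15, SE 0.09, adjusted p = 0.272). The sum averaged 1593 ± 57.4 CPM in fed pericentral and 1314 ± 214 CPM in fed periportal libraries (SD, n = 3 each). The zone differences of single genes thus lay on both sides of a small difference of the whole locus, as the plot of the locus shows.

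**Figure D3:**
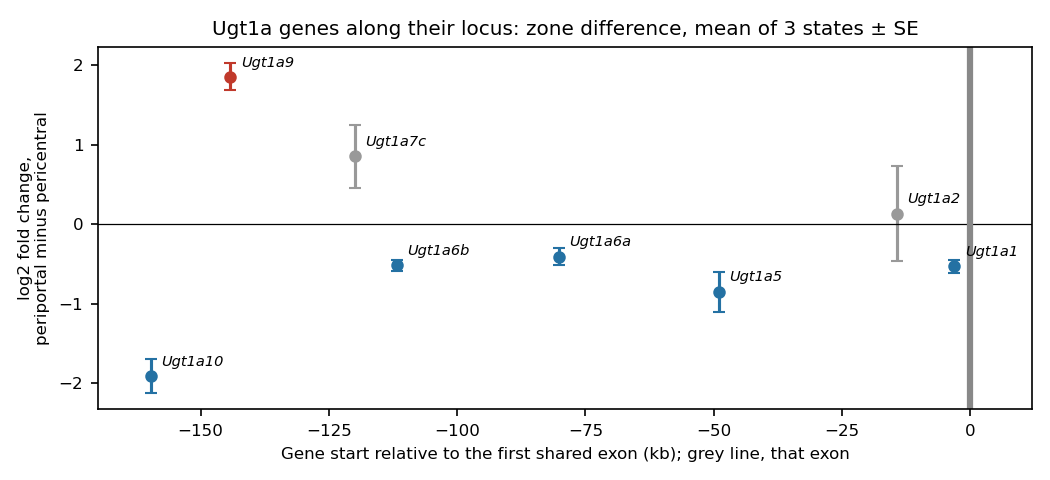
Zone difference of the 8 tested Ugt1a genes (log2 fold change of periportal minus pericentral, mean of 3 states with SE) against the distance of the gene start from the first shared exon in kb. Ugt1a9, in red, is at 1.85 between Ugt1a10 at -1.91 and the pericentral Ugt1a6b and Ugt1a6a; grey points were not called.

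In the Ugt2 family the differences were smaller. Ugt2b1, a steroid- and drug-conjugating enzyme, was lower in periportal hepatocytes (-0.63, SE 0.15, adjusted p = 0.00809), from a median of 471 CPM over the 9 pericentral libraries to 339.8 CPM over the 9 periportal ones. Ugt2b34 was lower by a smaller amount (-0.33, SE 0.09, adjusted p = 0.015). Ugt2a3 was higher (0.31, SE 0.09, adjusted p = 0.0255), a call lost without replicate 1 of fed pericentral or pericentral 24 h, or replicate 3 of periportal 8 h or periportal 24 h (0.27 to 0.30); its 8 h call (0.56, adjusted p = 0.0469) was lost in 15 of the 18 fits that leave out a library (0.39 to 0.63), all but those without replicate 2 of fed pericentral, 3 of pericentral 8 h or 1 of periportal 8 h, and in the 2 groups alone. Ugt2b5, the most abundant Ugt2b gene, spanned 536 to 1269.7 CPM in pericentral and 967 to 1787 CPM in periportal libraries and was not called (0.41, SE 0.16, adjusted p = 0.0752). Ugt2b38, named after its values were seen, was called at 2.69 (SE 0.54, adjusted p = 0.00274) from levels of 0.0494 to 3.39 CPM in pericentral and 1.12 to 14.8 CPM in periportal libraries. It shares 52.9% of its 31-base words with other genes of these families, and the sum of Ugt2b5, Ugt2b37 and Ugt2b38 was not called (0.42, adjusted p = 0.0718). That sum had to follow Ugt2b5, at a mean of 1112 CPM against 3.84 CPM for Ugt2b38, so it cannot check the Ugt2b38 call. Ugt3a2, the most abundant Ugt3a gene, was not called between the zones (-0.04, SE 0.08, adjusted p = 0.808).

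The sulfotransferases also had members on both sides. Sult2a8, a liver enzyme that sulfates bile acids, was at 556, 859.9 and 537 CPM in fed pericentral and 270.2, 311 and 319 CPM in fed periportal libraries. At 8 h it was at 407, 515 and 456 against 314, 211 and 191, and after 24 h at 629, 728 and 587 against 251, 198 and 253. The zones did not overlap in any state, and the mean difference was -1.18 (SE 0.11, adjusted p = 1.3e-06), 2.26-fold.

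Sult5a1, a sulfotransferase with few known substrates, was at 0.76, 0.551 and 1.09 CPM in fed pericentral and 11.9, 6.55 and 8.56 CPM in fed periportal libraries. The levels were 0.533, 1.02 and 0.541 against 9.00, 12.9 and 9.69 at 8 h, and 1.29, 1.10 and 0.297 against 8.44, 4.07 and 8.00 at 24 h. It was the largest difference of the 44 genes at 3.43 (SE 0.24, adjusted p = 7.84e-08), 10.8-fold, at a low level.

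Within the Sult1 genes the zones were mixed. Sult1a1, a phenol sulfotransferase, was higher in periportal hepatocytes (0.71, SE 0.13, adjusted p = 0.00066), from a median of 226 CPM in pericentral to 320.2 CPM in periportal libraries. Its 8 h call (0.98, adjusted p = 0.0115) was lost without pericentral 8 h replicates 1 or 3 or periportal 8 h replicate 2 (0.76 to 0.91) and in the 2 groups alone (adjusted p = 0.0777). Sult1b1, which sulfates thyroid hormone, was lower (-0.66, SE 0.15, adjusted p = 0.00399), and its fed call (-1.12) was lost without pericentral fed replicate 2 or periportal fed replicates 1 or 3 (-1.06 to -0.88). Sult1d1, which sulfates catecholamines, was at 264, 304 and 214 CPM in fed pericentral and 76.1, 155 and 96.4 CPM in fed periportal libraries. Its mean difference of -0.73 (SE 0.23, adjusted p = 0.0388) was lost in 12 of the 18 fits that leave out a library (-0.76 to -0.62), all but those without pericentral fed replicate 3, periportal fed replicate 2, pericentral 8 h replicate 1, periportal 8 h replicates 1 or 2 or pericentral 24 h replicate 2, and with no low-count filter (adjusted p = 0.0838). Sult1c2, of low level and named after its values were seen, was called higher in fed periportal libraries (4.62, 4.11 and 2.20 CPM) than in fed pericentral ones (2.25, 1.38 and 0.934 CPM; 1.25, SE 0.37, adjusted p = 0.0461). That call was lost in 11 of the 18 fits that leave out a library (1.0 to 1.25), all but those without replicate 1 of fed pericentral, pericentral 8 h, periportal 8 h or periportal 24 h, replicate 3 of fed periportal or pericentral 8 h, or replicate 2 of periportal 8 h, and in the 2 groups alone (adjusted p = 0.0703).

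Most of the SULT family was near the detection limit in these libraries. Of the 18 genes that were not tested, 13 were SULT, 3 GST and 2 UGT genes, and none exceeded 0.89 CPM in any library. That highest value belonged to Sult1e1, the estrogen sulfotransferase. Sult3a1 and Sult4a1, the main Sult3 and Sult4 genes, reached 0.356 and 0.206 CPM, and no read was counted for Sult1c1, Sult2a4, Sult2a6 and Sult6b2.

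Fasting changed fewer of these genes than zone did. From fed to 8 h, 3 of 44 genes (6.82%) were called in pericentral hepatocytes, against 13.8% of all genes, and 2 (4.55%) in periportal hepatocytes, against 14.4%. All were lower, where 6.57% and 6.85% of all genes were lower and 7.27% and 7.56% higher. From fed to 24 h, 3 (6.82%) were called in pericentral hepatocytes, against 21.8%, and 4 (9.09%) in periportal hepatocytes, against 19.6%. Of these, 2 were higher (10.8% of all genes) and 1 lower (11.1%) in pericentral hepatocytes, and 1 was higher (9.59%) and 3 lower (10%) in periportal ones. From 8 h to 24 h, 5 (11.4%) were called in pericentral hepatocytes, against 9.71%, with 4 higher (5.20%) and 1 lower (4.51%). In periportal hepatocytes 3 (6.82%) were called, against 7.46%, with 2 higher (3.22%) and 1 lower (4.24%). The comparisons against fed share the fed libraries of their zone, and those with 8 h share the 8 h libraries.

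Counts this small moved with single libraries. For pericentral 8 h against fed, 1 gene was called without pericentral fed replicates 1 or 2 or pericentral 8 h replicates 1 or 2. For pericentral 24 h against fed, the count was 1 without pericentral 24 h replicate 3, 2 without replicate 2 and 5 without periportal fed replicate 3, a library outside this comparison. For periportal 8 h against fed it was 1 without periportal fed replicate 1. For periportal 24 h against fed it was 1 without periportal 24 h replicates 2 or 3, 2 without periportal fed replicates 1 or 2, 7 without periportal 8 h replicates 2 or 3 and 9 without pericentral 8 h replicate 3. From 8 h to 24 h it was 3 in pericentral hepatocytes without pericentral 8 h replicate 1, and in periportal hepatocytes 1 without periportal 24 h replicates 2 or 3 and 5 without replicate 1 of either 8 h group.

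**Figure D4:**
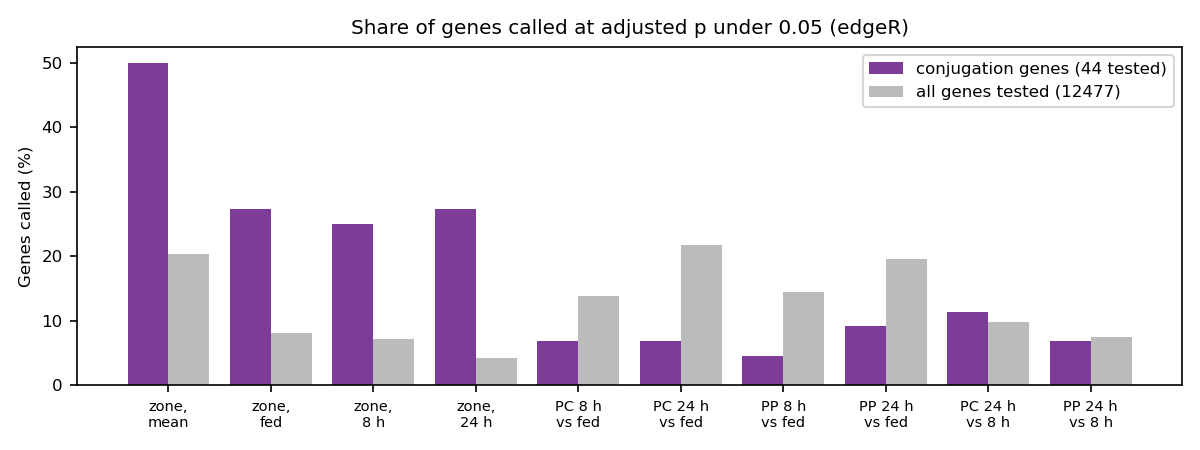
Percent of the 44 tested conjugation genes and of all 12477 tested genes called in each zone and fasting comparison. The conjugation genes exceed all genes in the 4 zone comparisons (22 of 44 against 20.3% in the mean over states) and lie below them in the 4 comparisons against fed.

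Gstt2, a theta-class enzyme, had the largest fasting response that held in both zones. In pericentral hepatocytes it was at 21.5, 34.9 and 31.6 CPM when fed, then 15.0, 12.2 and 15.7 CPM after 8 h, then 30.9, 46.0 and 49.9 CPM after 24 h. In periportal hepatocytes it was at 41.6, 34.3 and 29.5 CPM, then 16.9, 16.3 and 17.8 CPM, then 37.6, 44.9 and 37.4 CPM. The 8 h libraries were below all others of their zone; no overlap was found in 32.2% (pericentral) and 31.6% (periportal) of all genes between 8 h and fed, and in 28.9% and 25.4% between 8 h and 24 h. The 8 h decrease was -1.04 (SE 0.19, adjusted p = 0.00171) for the pericentral zone; for the periportal zone it was -1.05 (SE 0.19, adjusted p = 0.00176). The later increase was 1.56 (SE 0.19, adjusted p = 0.000229) for the pericentral zone; for the periportal zone it was 1.23 (SE 0.19, adjusted p = 0.00149). These 4 calls were kept in every alternative fit. Between fed and 24 h, both collected at 13:00, it was not called (0.53, adjusted p = 0.0551, and 0.19, adjusted p = 0.541), and the effect of clock hour cannot be told apart from that of the 8 h fast.

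Gsto1 rose at 24 h in both zones. In pericentral hepatocytes it went from 79.3, 75.9 and 70.4 CPM when fed to 108, 105 and 106 CPM at 24 h, a change of 0.50 (SE 0.08, adjusted p = 0.000399). In periportal hepatocytes it went from 97.6, 93.1 and 97.6 CPM to 130.4, 134 and 131 CPM, a change of 0.45 (SE 0.08, adjusted p = 0.00105). The 24 h libraries were above the fed ones without overlap, as in 38.7% (pericentral) and 36.9% (periportal) of all genes in either direction, and both calls were kept in every alternative fit. Its rise from 8 h to 24 h (0.37 and 0.29) was less stable, lost in the pericentral case without pericentral 8 h replicate 1 (0.27) and in the 2 groups alone (adjusted p = 0.0645), and in the periportal case in 11 of the 18 fits that leave out a library (0.26 to 0.32), all but those without pericentral fed replicates 1 or 3, periportal fed replicate 3, any of the pericentral 8 h libraries or pericentral 24 h replicate 3.

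Among the other GST genes, decreases were found. Gstm4 in pericentral hepatocytes went from 48.4, 58.1 and 48.9 CPM when fed to 25.3, 23.6 and 21.3 CPM at 24 h, falling by 1.14 (SE 0.31, adjusted p = 0.0165), a call lost without pericentral fed replicate 2 (-1.06) or pericentral 24 h replicate 3 (-1.08). Its periportal mean went from 31.5 to 16.6 CPM, which the main edgeR fit did not call. Other fits called it: the filter at a mean of 1 CPM (-0.94, adjusted p = 0.0443), DESeq2 (-0.92, adjusted p = 0.0142) and limma-voom (-0.96, adjusted p = 0.0433). Gstm7 was lower at 24 h than at 8 h in pericentral (-0.72, SE 0.17, adjusted p = 0.014) and periportal hepatocytes (-0.74, SE 0.17, adjusted p = 0.0158), and lower than fed in periportal ones (-0.56, SE 0.17, adjusted p = 0.0289). The first was lost without replicate 2 of either group (-0.67 and -0.65), the second without periportal 8 h replicate 2 or periportal 24 h replicates 2 or 3 (-0.71 to -0.59), and the third without periportal fed replicate 2 or those same 24 h replicates (-0.53 to -0.34) and in the 2 groups alone (adjusted p = 0.0656). Gstt3 fell in pericentral hepatocytes at 8 h by 0.84 (SE 0.25, adjusted p = 0.0367), from 89.2, 105 and 99.6 CPM to 46.6, 53.8 and 64.0 CPM; this was lost without any of the 3 fed libraries or 8 h replicates 1 or 2 (-0.89 to -0.73) and with no low-count filter (adjusted p = 0.0787).

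Of the UGT genes, Ugt2b34 fell at 8 h in both zones. Pericentral levels went from 601, 681 and 559 CPM to 330.1, 423 and 523 CPM (-0.53, SE 0.16, adjusted p = 0.0315), and periportal levels from 607, 469 and 520.2 CPM to 326, 344 and 408 CPM (-0.57, SE 0.16, adjusted p = 0.0215). The pericentral call was lost without replicates 1 or 2 of either group (-0.54 to -0.37) and in the 2 groups alone, the periportal call without periportal fed replicate 1 or periportal 8 h replicates 1 or 2 (-0.54 to -0.46). At 24 h in periportal hepatocytes Ugt1a6b fell by 0.40 (SE 0.12, adjusted p = 0.0223), from 127, 121 and 123 CPM to 107, 92.5 and 82.5 CPM, a call lost without periportal fed replicate 1 or periportal 24 h replicates 2 or 3 (-0.39 to -0.31). Ugt2b35 fell there by 0.95 (SE 0.31, adjusted p = 0.0471), from 292, 200.1 and 204 CPM to 182, 81.6 and 97.8 CPM. That call was lost in 13 of the 18 fits that leave out a library (-1.05 to -0.73), all but those without pericentral 8 h replicates 2 or 3, periportal 8 h replicates 2 or 3 or periportal 24 h replicate 1, with no low-count filter, with scaling that leaves out the 20 most abundant genes and in the 2 groups alone. The pericentral mean of Ugt2b35 went from 310.4 CPM when fed to 198 CPM at 24 h. This was not called with all 18 libraries but was called by edgeR in the 2 pericentral groups alone (-0.65, adjusted p = 0.0129).

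No SULT gene was called between fed and fasted periportal hepatocytes in the edgeR fit to all 18 libraries, where 1 of 8 had an unadjusted p under 0.05 at 8 h and 3 of 8 at 24 h. Other fits called some at 24 h: Sult1a1 with the replicate block (0.56, adjusted p = 0.0111), in the 2 groups alone (0.58, adjusted p = 0.0419) and in DESeq2 (0.58, adjusted p = 0.0457), Sult1d1 in the 2 groups alone (0.96, adjusted p = 0.0347), and Sult1c2 with the filter at a mean of 1 CPM (-1.06, adjusted p = 0.0491) and in DESeq2 (-1.04, adjusted p = 0.0425). In pericentral hepatocytes Sult1a1 rose from 125, 175 and 133 CPM at 8 h to 228, 277 and 329 CPM at 24 h (0.95, SE 0.22, adjusted p = 0.0135), a call lost without pericentral 8 h replicate 1 or pericentral 24 h replicate 3 (0.84 and 0.81). Sult1c2 was at 2.25, 1.38 and 0.934 CPM in fed, 0.696, 0.837 and 1.20 CPM in 8 h and 2.81, 3.90 and 3.02 CPM in 24 h pericentral libraries. Its rise from 8 h to 24 h was 1.82 (SE 0.39, adjusted p = 0.00811). Against fed it was 1.09 (SE 0.37, adjusted p = 0.045), lost in 10 of the 18 fits that leave out a library (0.83 to 1.17), all but those without pericentral fed replicate 1, periportal fed replicates 1 or 3, pericentral 8 h replicates 1 or 3, periportal 8 h replicates 1 or 2 or periportal 24 h replicate 1, and with no low-count filter (adjusted p = 0.0523).

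**Figure D5:**
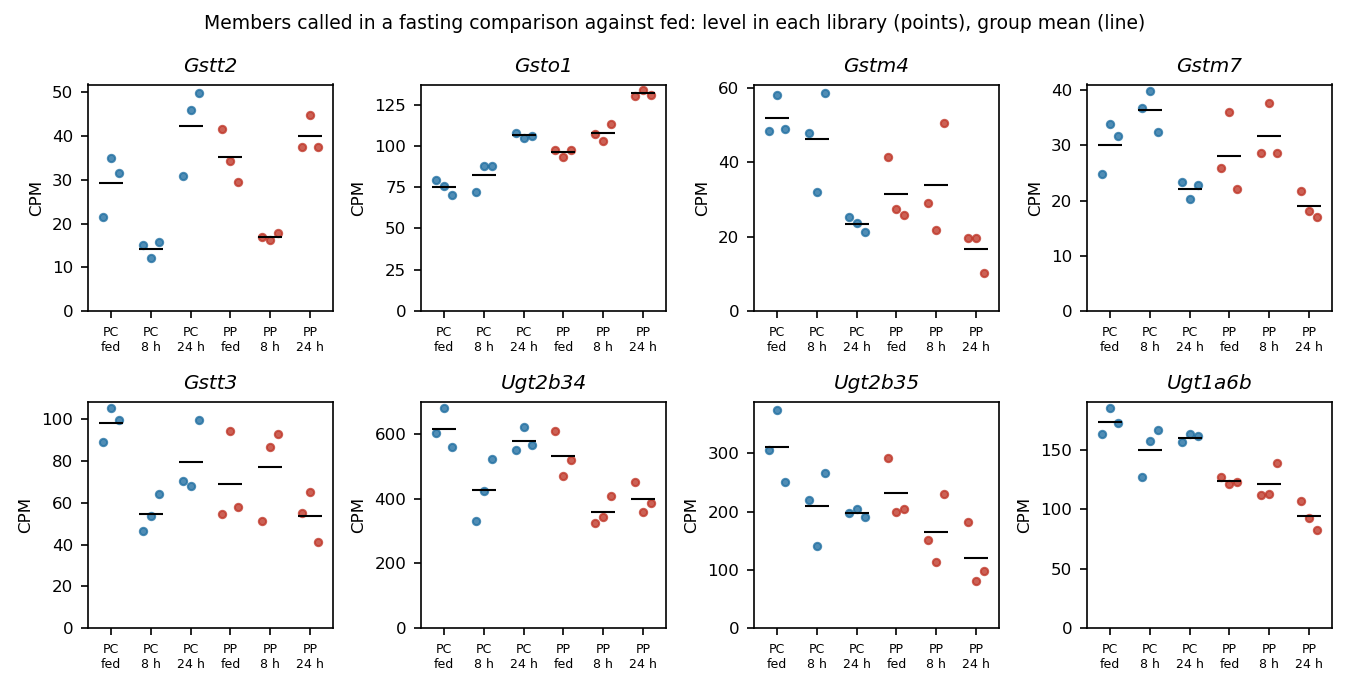
CPM in each library of 8 genes called between fed and fasted hepatocytes, with 3 points and their mean per zone and state. Gstt2 is lowest at 8 h in both zones, and Gsto1 is highest at 24 h in both zones.

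Whether the zones responded differently was tested by the difference between their changes. No gene of the 44 was called for the 8 h or the 24 h response in edgeR, against 0.00% and 0.0160% of all genes. An unadjusted p under 0.05 was found for 1 gene at 8 h (Gstt3, 1.0, SE 0.35) and for 2 genes at 24 h (Sult1c2, -2.13, SE 0.52, and Ugt3a1, -0.57, SE 0.19). DESeq2 called 0 and 1 (Sult1c2, adjusted p = 0.0449), and limma-voom 0 and 0. At 8 h, 38 of the 44 differences were above 0, with a median of 0.35 against 0.01 over all genes, so the periportal change lay above the pericentral one in most members. These 38 share the same 12 libraries and are not independent.

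By share of all counts, the 62 genes took 1.23% ± 0.195 in fed pericentral and 1.02% ± 0.143 in fed periportal libraries, and 1.09% ± 0.0424 and 0.841% ± 0.102 at 24 h (SD, n = 3). These shares are of library totals without TMM scaling, unlike the CPM above, so they also move with other abundant genes. Albumin, for example, had a mean of 51469 CPM in fed pericentral and 105925 CPM in fed periportal libraries. How much of the differences in share comes from such genes was not tested. The GST share was 0.514% ± 0.0853 in fed and 0.386% ± 0.0252 in 24 h pericentral libraries, and 0.398% ± 0.0755 and 0.311% ± 0.0593 in periportal ones. The UGT share was 0.598% ± 0.0872 and 0.577% ± 0.0277 in pericentral, and 0.545% ± 0.0808 and 0.446% ± 0.0531 in periportal libraries. The SULT share, 0.123% ± 0.0269 and 0.132% ± 0.00669 in pericentral libraries, was 0.0746% ± 0.0113 and 0.0838% ± 0.00181 in periportal ones, with no overlap between zones at either time. At 24 h the zones did not overlap in the UGT share or in that of all 62 genes either. Among single genes, the zones did not overlap in 28.3% (fed) and 22.1% (24 h) of all genes tested. At 8 h the SULT share was 0.0965% ± 0.0200 in pericentral and 0.0705% ± 0.00747 in periportal libraries, and the zones overlapped. The shares of all 62 genes at 8 h were 1.05% ± 0.20 and 0.946% ± 0.194, those of GST 0.452% ± 0.0912 and 0.369% ± 0.107, and those of UGT 0.504% ± 0.106 and 0.507% ± 0.0937. No test was made of these sums.

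Genes that supply the conjugating groups, carry the products away or regulate the families were described from lists. All 4 efflux pumps of conjugates were lower in periportal hepatocytes, as were 9.96% of all genes: Abcc2, the canalicular pump (-0.60, SE 0.07, adjusted p = 1.33e-05), Abcc3 (-0.50, SE 0.15, adjusted p = 0.0299) and Abcc4 (-2.67, SE 0.78, adjusted p = 0.0269), pumps of the blood side, and Abcg2 (-0.39, SE 0.11, adjusted p = 0.0207). Abcc4 was at most 7.84 CPM and varied widely between replicates. Of 10 regulators 4 were lower and 0 higher, where 9.96% of all genes were lower and 10.3% higher: Ahr, the aryl hydrocarbon receptor (-2.56, SE 0.25, adjusted p = 4.58e-06), Nr1i3, the receptor CAR (-1.26, SE 0.15, adjusted p = 1.31e-05), Keap1 (-0.26) and Ppara (-0.28). Ahr lay at 49.7, 57.7 and 60.1 CPM in fed pericentral and 3.67, 9.19 and 10.4 CPM in fed periportal libraries.

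The donors and related enzymes were divided. In the same mean zone difference, 9.96% of all genes were lower and 10.3% higher in periportal hepatocytes. Ugdh, which makes UDP-glucuronic acid, was lower in periportal hepatocytes (-0.62, SE 0.11, adjusted p = 0.000405), the only one of 4 genes of the UDP-glucuronate list called. Papss2, which makes PAPS (-0.46), and Cdo1, on the route from cysteine to sulfate (-0.47), were lower, 2 of 9 genes of sulfate supply. Of 4 glutathione supply genes Gss was higher (0.51) and Gsr lower (-0.32). Of 4 tested glutathione transferases outside the symbol rule, 3 were lower, Mgst1 (-0.69), Gstcd (-0.29) and Gstz1 (-0.18). Among the hydrolases listed, Gusb (0.60) and Arsa (0.44) were higher and the carboxylesterase Ces1d (-0.43) lower.

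Of the donor supply lists, most called genes were lower after the 24 h fast. Among all genes tested, 11.1% were lower and 10.8% higher at 24 h in pericentral hepatocytes. In periportal hepatocytes 10% were lower and 9.59% higher. Slc35b1, listed with the transporters of the endoplasmic reticulum, was lower in pericentral (-1.33, SE 0.14, adjusted p = 1.16e-05) and periportal hepatocytes (-1.13, SE 0.14, adjusted p = 5.47e-05). Ugdh went from 367, 337 and 312 CPM to 191, 217 and 276 CPM in pericentral hepatocytes (-0.57, SE 0.18, adjusted p = 0.0327) and from 305, 254 and 224 CPM to 149.6, 109 and 103 CPM in periportal ones (-1.12, SE 0.18, adjusted p = 0.000509). With Slc35d1 in periportal hepatocytes (-0.44, adjusted p = 0.0499), 2 of 4 and 3 of 4 genes of the UDP-glucuronate list were lower. Slc35b1 is counted in both, and a part of Slc35b1 in UDP-glucuronate supply was not tested. Of 9 genes of sulfate supply, 4 were lower and 1 higher in pericentral, and 3 lower and 1 higher in periportal hepatocytes; Papss1 (-1.41 and -0.95), the sulfate transporter Slc26a1 (-0.98 and -1.0) and Bpnt1 (-0.46 and -0.35) fell in both, Slc35b3 (-1.14) in pericentral alone, and Cdo1 rose (0.67 and 1.19).

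Of the 10 regulators, 3 were higher and 1 lower at 24 h in pericentral, and 4 higher and 1 lower in periportal hepatocytes. Of all genes, 10.8% were higher and 11.1% lower in the first comparison, and 9.59% and 10% in the second. Nr1i2, the receptor PXR (1.03 and 0.89), Ppara (0.96 and 0.84) and Hnf4a (0.55 and 0.57) rose in pericentral and periportal hepatocytes, and Nr1i3 (1.31) was called in periportal ones. Nfe2l2, the factor NRF2 of the antioxidant response, fell in both (-0.52 and -0.53). Gss (-0.61) and Gsr (-0.32) fell in periportal hepatocytes, where Gusb (0.45) rose, Arsa rose in both zones (0.94 and 0.59), Ces1d rose in pericentral ones (0.65), and no efflux pump or other glutathione transferase was called in edgeR. Of those 8 genes, Abcc2 (0.33) and Mgst1 (-0.35) in pericentral hepatocytes had an unadjusted p under 0.05.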

How the data were processed

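RNA-seq of 18 libraries (6 groups of 3) was analysed from a table of estimated counts per gene, which the authors deposited unnormalized; per the submitters' processing notes, kallisto 0.46.0 and mm10 were used, and the annotation is not given in the sources used here. Between 41.9% and 46.1% of the values above 0 in a library were whole within 1e-09, so counts were rounded to 1. Replicates differed by more than sampling noise (chi-square per gene 38.0 to 128).

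The fit used edgeR 4.0.16 (TMM, filterByExpr, glmQLFit robust, glmQLFTest) in R 4.3.3 with 1 coefficient per group and 12 contrasts, over 12477 genes. Alternatives were DESeq2 size factors, other filters, only the groups compared, the replicate block, scaling without the 20 most abundant genes, DESeq2 1.42.0, limma-voom (limma 3.58.1) and leaving out each library. The script was tested on simulated data.

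Genes named were those called with at least 10 CPM in the higher group (at most 12 per contrast in full), the most abundant of each subfamily, called genes of the lists, and zone markers. Members and lists were chosen with earlier results of these data known. Symbols and transcripts came from GENCODE M21, promoters from RefSeq (GRCm38.p6). Near-identical copies were planned by protein identity; with no protein table used here, 31-base words shared between transcripts (at least 20%) were used instead, after the data were seen.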

Additional observations from a re-analysis of the deposited data

How the results depend on the processing

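Of 77 gene results called in the report, 43 kept the call under every alternative, 34 lost it under at least 1 and 0 reversed. Leaving out each library gave 19 to 23 called genes for the mean zone difference, 8 to 13 when fed, 7 to 11 at 8 h and 6 to 14 at 24 h. For pericentral hepatocytes it gave 1 to 3 (8 h against fed), 1 to 5 (24 h against fed) and 3 to 7 (24 h against 8 h), and for periportal hepatocytes 1 to 3, 1 to 9 and 1 to 5; both zone-by-fasting tests stayed at 0.

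Fitting only the groups compared gave 5 genes for the 8 h zone difference, 5 for pericentral 24 h against fed and 7 for periportal 24 h against fed. DESeq2 gave 7 and 10 for these last comparisons, 8 and 9 for 24 h against 8 h in pericentral and periportal hepatocytes, and 1 for the 24 h zone-by-fasting test. The filter at a mean of 1 CPM gave 7 for periportal 24 h against fed and 5 for periportal 24 h against 8 h. The cause was not tested.

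The labels do not say that a replicate number marks a shared mouse or batch, so the samples were not treated as paired. Correlations of deviations had a median of 0.03 (-0.12 to 0.21) between same-number libraries, with 7 of 45 pairs over 0.1, and of -0.02 between other numbers, with 3 of 90 over 0.1; 10 of 18 libraries matched their own number best. With the replicate block, 21 genes were called for the mean zone difference and 5 for periportal 24 h against 8 h; all other counts stayed within 1.5 times. With each scaling the median of all genes lay between -0.02 and 0.02 in every contrast. Low counts limit the 18 untested genes.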
